A study of Homo sapiens with 28 samples.

Results

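The cytosolic sulfotransferases SULT1A1, SULT1A2, SULT1B1, SULT1C2, SULT1E1, SULT2A1 and SULT2B1, and the synthases PAPSS1 and PAPSS2 that make their sulfate donor, were followed in HepG2, an established cell line from a human liver cancer. They were chosen by gene symbol, and all 9 were found among 63139 gene rows and were among the 18849 genes tested. CdCl2 (cadmium chloride, 0.5 µM) was set against H2O. TCDD (a dioxin, 100 nM), PFOS (a perfluorinated surfactant, 10 µM), BPA (bisphenol A, 75 µM) and TBTCl (tributyltin chloride, 0.1 µM) were set against DMSO, whose content in the medium was at most 0.1%. Every group, vehicles included, had 24 h without serum followed by 24 h with compound or vehicle, and 4 libraries, 28 in all. The protocols name 4 independent experiments and technical triplicates, and leave unsaid whether equal replicate numbers in different groups come from 1 experiment. A deposited note records that the names of the TCDD and PFOS libraries were exchanged after deposit.

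Sulfotransferases move a sulfonate group from the donor PAPS onto a hydroxyl or amino group of a small molecule, which makes it more soluble in water and, for hormones, mostly inactive. The PAPS synthases build PAPS from inorganic sulfate and ATP, so every sulfotransferase of the cell draws on their product. SULT1A1 and SULT1A2 act on phenols, SULT1B1 on thyroid hormones and small phenols, SULT1C2 on phenols and some carcinogens, and SULT1E1 on estrogens. SULT2A1 acts on dehydroepiandrosterone and bile acids and is abundant in adult liver, and SULT2B1 acts on cholesterol and pregnenolone and is known best from skin. Sulfation is one of the routes by which liver clears phenolic chemicals such as BPA.

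The libraries held 28.9 M to 66 M counts (median 46.5 M), and 3 counts in a library corresponded to 0.0435 to 0.104 CPM, a floor that covers counting error only. CPM is the count of a gene scaled to the size of its library, here after TMM, a correction for library composition. CYP1A1, a target of the dioxin receptor, averaged 4610 CPM in TCDD, 242 CPM in BPA and 7.51 CPM in PFOS, against 8.37 CPM in DMSO, which matched the labels after the exchange. MT1M, a metallothionein, averaged 26 CPM in CdCl2, against 0.445 CPM in H2O. All 8 hepatocyte markers had counts in every group, and their summed level ran from 26000 to 41600 CPM in BPA and from 35200 to 52300 CPM in TCDD, against 39000 to 71900 CPM in DMSO. The 4 leukocyte markers summed to 5.31 to 17.1 CPM in BPA and 3.88 to 6.2 CPM in TBTCl, against 1.35 to 1.71 CPM in DMSO, and the defining PTPRC had no count in these 3 groups. The 4 biliary markers summed to 509 to 558 CPM in BPA, against 806 to 954 CPM in DMSO. The 4 intestinal markers summed to 470 to 559 CPM in TCDD and 126 to 210 CPM in BPA, against 295 to 359 CPM in DMSO. Endothelial markers stayed at or under 7.14 CPM and fibroblast and stellate markers at or under 25.7 CPM in all 28 libraries.

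The levels of the 9 genes, taken per kb of exon so that genes can be compared, spanned several orders of magnitude. In DMSO, SULT2A1 averaged 153 CPM per kb and PAPSS1 33.4 CPM per kb. SULT1A2 followed with 3.86 CPM per kb and SULT1C2 with 2.78 CPM per kb. The remaining 5 genes were low in DMSO, with 0.383 CPM per kb for SULT1E1, 0.189 for SULT1B1, 0.12 for PAPSS2, 0.0797 for SULT1A1 and 0.0212 for SULT2B1. In that order the libraries of SULT1E1 and SULT1B1 overlapped, as did those of SULT1B1 and PAPSS2 and those of PAPSS2 and SULT1A1, while the other neighbours in DMSO did not overlap. Of the summed level per kb of the 7 sulfotransferases, SULT2A1 made up 87.4% ± 5.82 in BPA and 95.9% ± 1.09 in TCDD, against 94.4% ± 2.61 in DMSO (SD, n = 4 each).

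**Figure D1:**
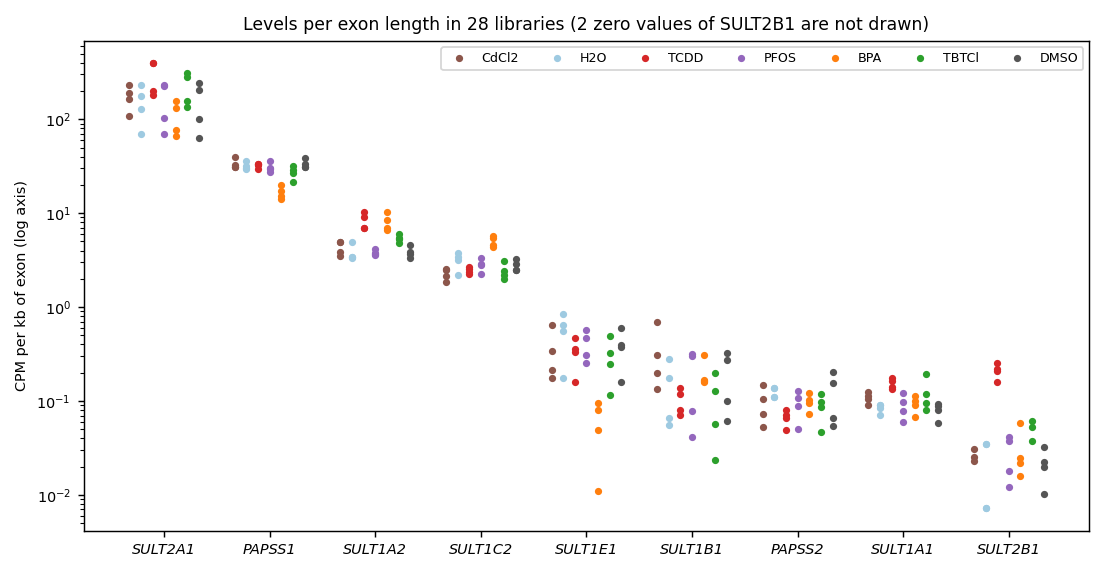
Level of each gene in CPM per kb of exon (log axis), 1 point for each library, coloured by group. SULT2A1 and PAPSS1 lay above the other 7 genes in all 7 groups, and SULT2B1 was the lowest gene in every group but TCDD, where its points lay between 0.161 and 0.251.

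The first 4 places of the order were the same in all 7 groups, and the low genes changed places. In TCDD, SULT2B1 averaged 0.21 CPM per kb and stood sixth, overlapping both neighbours, SULT1E1 at 0.329 and SULT1A1 at 0.153. In BPA, SULT1E1 averaged 0.0588 CPM per kb and stood eighth, overlapping SULT1A1 at 0.0924 and SULT2B1 at 0.0302. The scale rests on the union of annotated exons, which is 8.91 kb for SULT1A1, 8.4 kb for SULT1C2, 7.36 kb for SULT1B1 and 2.27 kb for SULT1A2. A long exon that is little used lowers the value of its gene. In mean CPM without the length, SULT1C2 lay above SULT1A2 in every group, with 23.3 against 8.76 CPM in DMSO. The order of these genes therefore depends on the length used.

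**Figure D2:**
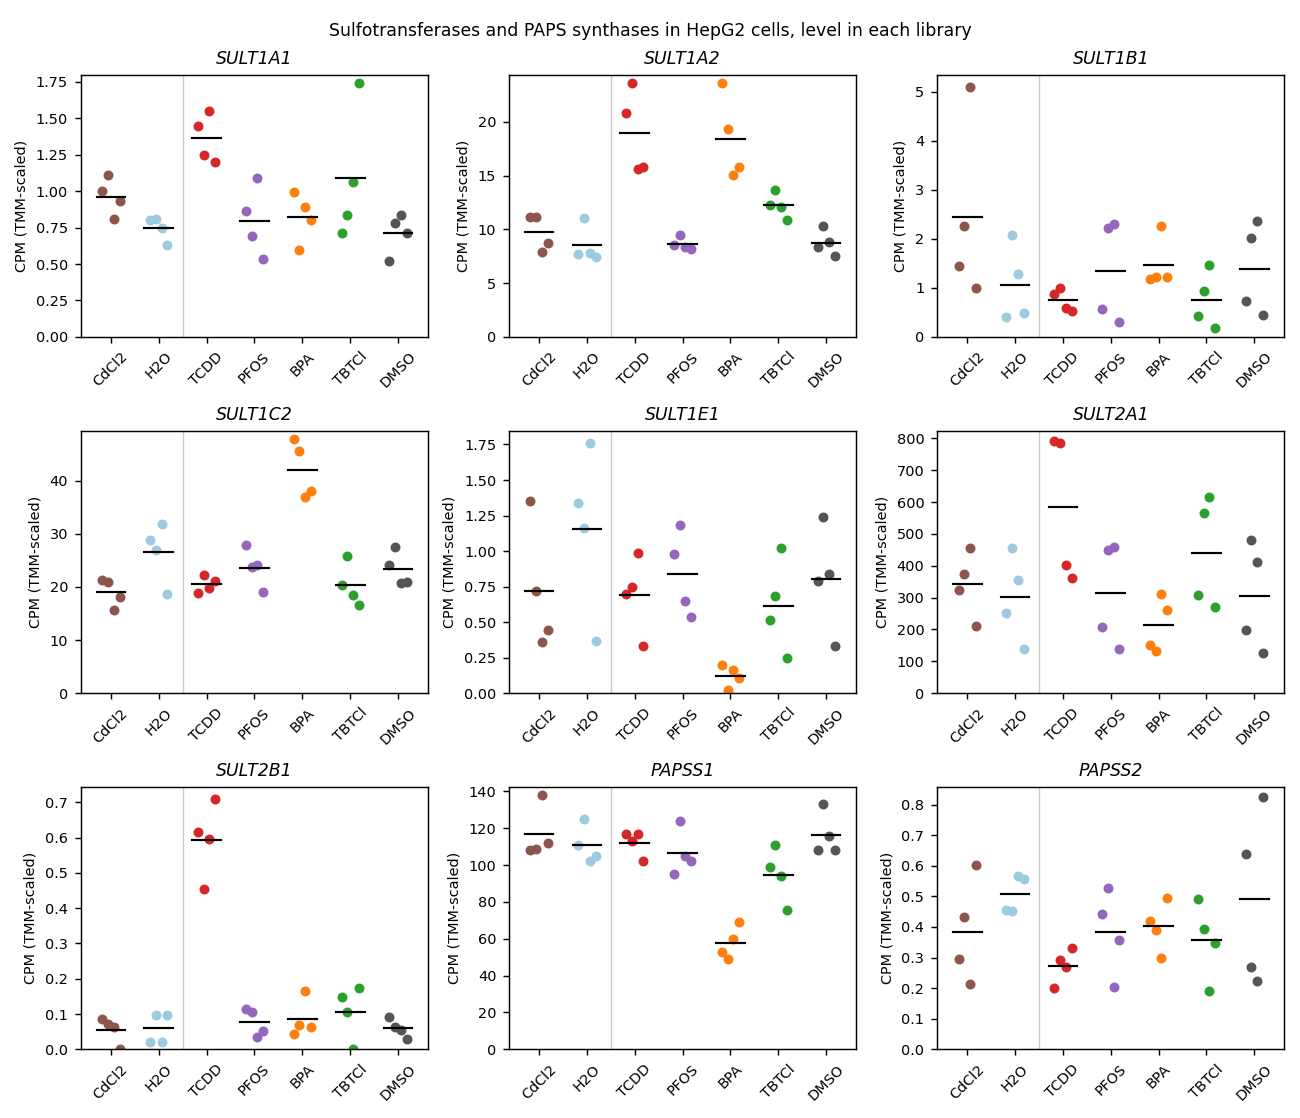
CPM of each gene in each library, 1 panel for each gene, with the group mean as a bar. SULT2B1 stood apart in TCDD, SULT1A2 in TCDD and BPA, SULT1C2 in BPA, and SULT1E1 and PAPSS1 were lowest in BPA.

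TCDD raised 3 of the 9 genes, SULT2B1, SULT1A2 and SULT1A1, and lowered none by the test, in edgeR and in DESeq2. Of these, SULT2B1 passed the filter on low counts only through its TCDD libraries, so its call is not an independent result. Over all tested genes, 9.25% were called in this comparison, 6.45% as higher and 2.8% as lower. A gene is called here at an adjusted p under 0.05, adjusted by the Benjamini-Hochberg method over all 18849 genes. The median log2 change was -0.05 over the 9 genes and -0.01 over all genes tested.

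SULT2B1 (chr19:48552075-48599425 on the plus strand of GRCh38), the cholesterol and pregnenolone sulfotransferase, had 31, 28, 20 and 30 counts in the TCDD libraries, against 3, 4, 3 and 2 counts in the DMSO libraries. Its levels were 0.617, 0.454, 0.595 and 0.708 CPM in TCDD, against 0.0914, 0.0636, 0.0557 and 0.029 CPM in DMSO. Every TCDD library lay above every other library of the study, the highest of which had 0.174 CPM in TBTCl. The log2 fold change was 3.34 ± 0.52 (SE), which is 10.1-fold, with an adjusted p of 5.13e-05 in edgeR's quasi-likelihood test. SULT2B1 passed the filter on low counts only through the 4 TCDD libraries, since it was under the minimum of 0.215 CPM in the other 24 libraries, so a gene of this kind had to differ to be tested at all. The 3 keratinocyte markers found in the table had no count in any TCDD library.

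The RefSeq table of promoters held SULT2B1, SULT1B1, SULT1C2, SULT1E1, SULT2A1 and PAPSS1. The 250 bases before the RefSeq start of SULT2B1 (chr19:48551922-48552171, plus strand, GRCh38.p14) are shown because the gene had the largest fold change of the 9 in TCDD. The capitals mark GCGTG, the letters known as the core bound by the dioxin receptor with its partner.
SULT2B1: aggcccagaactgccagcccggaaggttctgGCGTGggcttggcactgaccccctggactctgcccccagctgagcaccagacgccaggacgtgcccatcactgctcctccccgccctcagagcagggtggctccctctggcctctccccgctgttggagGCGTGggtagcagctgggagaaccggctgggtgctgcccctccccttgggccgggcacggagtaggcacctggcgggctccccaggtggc
These letters begin 219 and 90 bases before the start. The longer form TNGCGTG, which contains GCGTG, begins 221 bases before the start. Searched on both strands, GCGTG was in 2 of the 6 windows, those of SULT2B1 and PAPSS1, and in 32.2% of 35116 RefSeq windows of the same length, with 2 or more copies in 10.2%. TNGCGTG was in 1 of the 6 windows and in 4.52% of all windows. The G and C share of the SULT2B1 window was 70.8%, and these shares of all windows were not adjusted for G and C. PAPSS1, which also holds GCGTG, averaged 112 ± 6.98 CPM in TCDD and 116 ± 11.9 CPM in DMSO (SD, n = 4 each), and was not called.

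SULT1A2 (chr16:28591943-28597109, minus strand) had 20.8, 23.6, 15.6 and 15.8 CPM in TCDD, against 8.35, 10.3, 8.85 and 7.49 CPM in DMSO. The groups did not overlap. Its log2 fold change was 1.11 ± 0.17, or 2.17-fold, with an adjusted p of 2.82e-05. SULT1A1 (chr16:28605196-28623625, minus strand), the neighbouring gene and its close copy, had 1.45, 1.25, 1.55 and 1.2 CPM in TCDD, against 0.518, 0.779, 0.835 and 0.71 CPM in DMSO. These groups did not overlap either, as was the case for 15.3% of all tested genes. The log2 fold change of SULT1A1 was 0.92 ± 0.24, or 1.89-fold, with an adjusted p of 0.0136. Without the DMSO library of replicate 1 its log2 fold change was 0.80 with an adjusted p of 0.0541, and with no filter on low counts it was 0.88 with an adjusted p of 0.0658.

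How reads were divided between close copies can bear on SULT1A genes, and exact sharing at read length was found for SULT1A1 and not for SULT1A2. Of the 150-base stretches of SULT1A1 transcripts, 2.55% also occurred in transcripts of SULT1A3, SULT1A4, their read-through genes or a pair of pseudogenes, and SULT1A2 shared none at this length. Exons of SULT1A1 also overlap a pseudogene on the same strand over 471 bases, which is 5.29% of its exon length. Counted as 1 gene, the SULT1A copies changed by a log2 of 1.10 in TCDD and 1.03 in BPA against DMSO. Over the DMSO libraries SULT1A2 had 1918 counts and SULT1A1 160, so this sum follows SULT1A2 and cannot decide about SULT1A1.

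The other 6 genes did not pass the test in TCDD. SULT2A1 (chr19:47870466-47886397, minus strand), which acts on dehydroepiandrosterone and bile acids, had 791, 786, 403 and 361 CPM in TCDD, against 199, 482, 412 and 126 CPM in DMSO. Replicates 1 and 2 of TCDD lay above every DMSO library, while replicates 3 and 4 lay within the DMSO range. Its log2 difference was 0.94 ± 0.44, with a 95% interval of 0.04 to 1.84, an unadjusted p of 0.0413 and an adjusted p of 0.213. PAPSS2 (chr10:87659613-87747705, plus strand), the PAPS synthase with a known role in cartilage and adrenal androgen sulfation, had 0.199, 0.292, 0.268 and 0.33 CPM in TCDD, against 0.64, 0.27, 0.223 and 0.826 CPM in DMSO. The groups overlapped, and its log2 difference of -0.84 ± 0.38 had an adjusted p of 0.198. SULT1B1, SULT1C2, SULT1E1 and PAPSS1 had log2 differences between -0.89 and -0.05, with adjusted p of 0.483 or more.

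BPA changed 4 of the 9 genes, raising SULT1A2 and SULT1C2 and lowering SULT1E1 and PAPSS1. Over all tested genes, 35% were called, 17.3% as higher and 17.6% as lower, so 4 of 9 genes is a share near that of all genes. The libraries of BPA and DMSO did not overlap for these 4 genes, as for 37.2% of all genes. The median log2 change was 0.05 over the 9 genes and -0.02 over all genes. With upper-quartile scaling the median of all genes was -0.15, and all 4 calls and their directions remained.

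PAPSS1 (chr4:107590276-107720452, minus strand), the more abundant PAPS synthase of these cells, had 52.6, 49.1, 59.9 and 69.1 CPM in BPA, against 108, 133, 116 and 108 CPM in DMSO. All 4 BPA libraries lay below all other libraries of the study, the lowest of which had 75.5 CPM in TBTCl. The level in BPA was 49.6% of that in DMSO, a log2 change of -1.01 ± 0.12 with an adjusted p of 1.13e-06. The other synthase, PAPSS2, averaged 0.401 ± 0.0818 CPM in BPA and 0.49 ± 0.291 CPM in DMSO (SD, n = 4 each), a log2 difference of -0.26 ± 0.37 with an adjusted p of 0.616. The summed biliary markers were also lower in BPA, and the summed hepatocyte markers ranged lower but overlapped those of DMSO, as given above. These sums were not tested, nor was their part in the result. In bulk RNA of a cell line, fewer cells that express a gene and less of its RNA per cell cannot be told apart.

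SULT1E1 (chr4:69841212-69860152, minus strand), the estrogen sulfotransferase, had 9, 1, 5 and 5 counts in the BPA libraries, against 26, 78, 45 and 23 counts in the DMSO libraries. Its levels were 0.2, 0.023, 0.166 and 0.103 CPM in BPA, against 0.792, 1.24, 0.835 and 0.333 CPM in DMSO. The groups did not overlap, and the BPA libraries were also below every library of the other groups, whose lowest was 0.244 CPM in TBTCl. The fitted level in BPA was 15.4% of that in DMSO, a log2 change of -2.70 ± 0.60 with an adjusted p of 0.00106. Leaving out any single library of the comparison gave -3.08 to -2.35. The exons of SULT1E1 overlap those of AC108941.2 on the same strand over 503 bases, 24.1% of its exon length, so its count depends on how shared reads were treated.

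SULT1C2 (chr2:108288639-108309915, plus strand) had 47.8, 45.5, 37 and 38.1 CPM in BPA, against 24.2, 27.5, 20.7 and 20.9 CPM in DMSO. The groups did not overlap, and no library outside BPA reached the BPA range, the highest being 31.9 CPM in H2O. It rose 1.81-fold, a log2 change of 0.85 ± 0.16 with an adjusted p of 0.000198. SULT1A2 had 23.6, 19.3, 15.1 and 15.8 CPM in BPA, against 8.35, 10.3, 8.85 and 7.49 CPM in DMSO. It rose 2.11-fold in BPA, a log2 change of 1.08 ± 0.17 with an adjusted p of 2.52e-05.

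The promoter windows of the 3 called BPA genes found in the RefSeq table are shown, since these genes moved in BPA and not in the same direction. They are chr2:108288645-108288894 on the plus strand for SULT1C2, chr4:69860146-69860395 on the minus strand for SULT1E1 and chr4:107720235-107720484 on the minus strand for PAPSS1, all in GRCh38.p14 and printed 5′ to 3′ on the strand of the gene. Capitals mark GCGTG and the letters TGACNNNGC, known as the core of the antioxidant response element, on either strand.
SULT1C2: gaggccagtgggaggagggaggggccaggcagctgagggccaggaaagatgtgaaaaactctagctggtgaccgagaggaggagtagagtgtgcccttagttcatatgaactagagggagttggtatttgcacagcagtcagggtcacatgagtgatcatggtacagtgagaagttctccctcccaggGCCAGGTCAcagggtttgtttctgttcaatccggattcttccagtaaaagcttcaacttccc
SULT1E1: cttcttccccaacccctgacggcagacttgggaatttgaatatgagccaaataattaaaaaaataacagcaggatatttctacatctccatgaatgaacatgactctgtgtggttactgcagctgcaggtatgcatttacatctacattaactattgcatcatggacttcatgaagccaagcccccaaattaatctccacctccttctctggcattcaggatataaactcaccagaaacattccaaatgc
PAPSS1: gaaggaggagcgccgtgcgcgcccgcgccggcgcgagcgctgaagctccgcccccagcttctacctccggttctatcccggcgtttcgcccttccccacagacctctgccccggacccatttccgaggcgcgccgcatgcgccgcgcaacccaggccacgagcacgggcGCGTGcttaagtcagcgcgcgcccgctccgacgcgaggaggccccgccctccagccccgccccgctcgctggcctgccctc
SULT1C2 holds TGACNNNGC once, read on the opposite strand, 62 bases before the start. PAPSS1 holds GCGTG once, 81 bases before the start, and SULT1E1 holds neither. TGACNNNGC was in 1 of the 6 windows and in 10.9% of all 35116 windows. The G and C share was 75.2% in the PAPSS1 window, 52.4% in that of SULT1C2 and 40.8% in that of SULT1E1.

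The remaining 5 genes did not pass the test in BPA. SULT2A1 had 152, 133, 311 and 260 CPM in BPA, against 199, 482, 412 and 126 CPM in DMSO. These groups overlapped, and the log2 difference of -0.51 ± 0.44 had a 95% interval of -1.41 to 0.39 and an adjusted p of 0.386. SULT1A1 averaged 0.824 ± 0.17 CPM in BPA and 0.71 ± 0.138 CPM in DMSO (SD, n = 4 each), a log2 difference of 0.20 ± 0.25 with an adjusted p of 0.573. SULT1B1 had a log2 difference of 0.05 ± 0.63 and SULT2B1 one of 0.49 ± 0.67, with adjusted p of 0.962 and 0.606.

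**Figure D3:**
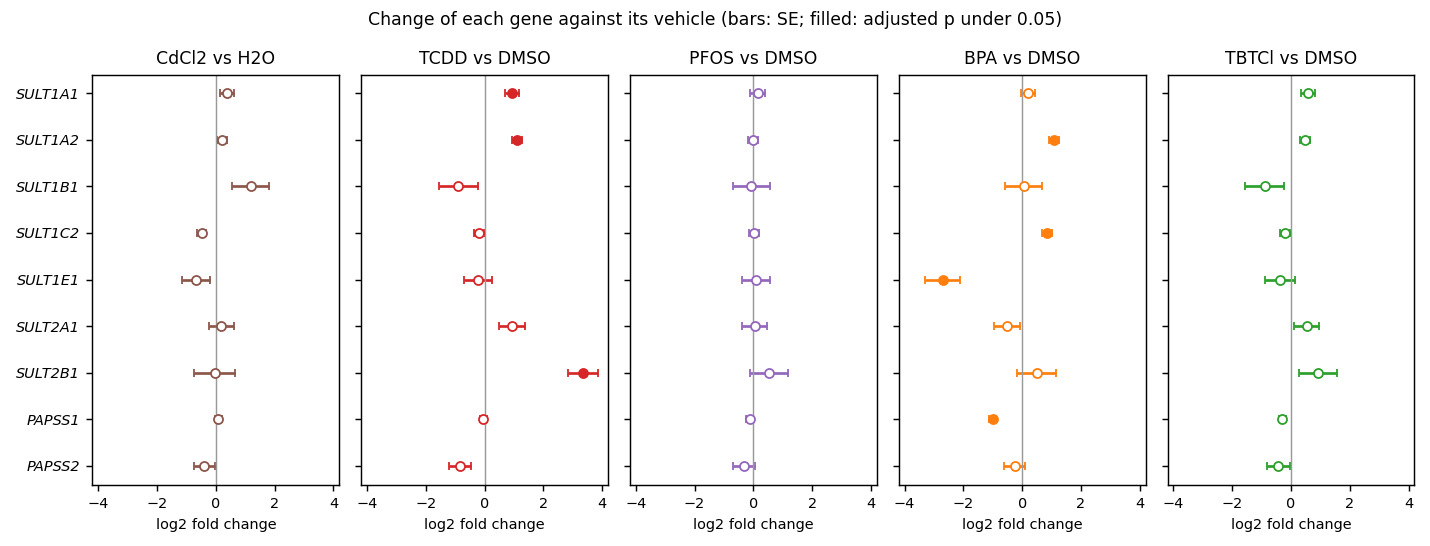
Log2 fold change of each gene in each compound against its vehicle, with the SE as bars and filled points at an adjusted p under 0.05. Filled points occur in the TCDD panel (SULT1A1, SULT1A2, SULT2B1) and in the BPA panel (SULT1A2, SULT1C2, SULT1E1, PAPSS1).

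TBTCl changed none of the 9 genes at an adjusted p under 0.05 in edgeR or in DESeq2, where 0.143% of all genes were called in edgeR. At an unadjusted p under 0.05 there were 3 of 9, SULT1A1, SULT1A2 and PAPSS1, beside 15.6% of all genes. SULT1A2 had 12.3, 13.7, 12.1 and 10.9 CPM in TBTCl, against 8.35, 10.3, 8.85 and 7.49 CPM in DMSO. The groups did not overlap, as for 4.87% of all genes, and the log2 difference of 0.48 ± 0.17 had an adjusted p of 0.184. With a block for the replicate number, which paired the libraries of this comparison, SULT1A2 differed by 0.49 with an adjusted p of 0.0452 and was the only one of the 9 called. SULT1A1 had 0.711, 0.839, 1.06 and 1.74 CPM in TBTCl, a log2 difference of 0.58 ± 0.25 from DMSO with an adjusted p of 0.263. PAPSS1 had 99, 111, 94.1 and 75.5 CPM in TBTCl, a log2 difference of -0.29 ± 0.12 from DMSO with an adjusted p of 0.26. In same-numbered pairs the PAPSS1 ratio of TBTCl to DMSO was 0.916, 0.832, 0.814 and 0.7, below 1 in 4 of 4.

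PFOS called none of the 9 genes in edgeR or DESeq2, and none had an unadjusted p under 0.05, where 0.0159% of all genes were called and 5.53% had such a p. The 95% interval of the log2 difference between PFOS and DMSO was -0.37 to 0.32 for SULT1A2, -0.31 to 0.35 for SULT1C2 and -0.38 to 0.13 for PAPSS1. It was wider for the variable and the low genes, -0.85 to 0.94 for SULT2A1, -1.37 to 1.22 for SULT1B1 and -0.83 to 1.86 for SULT2B1. For all 9 genes the PFOS libraries overlapped those of DMSO, while 4.94% of all genes showed no overlap.

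CdCl2 called none of the 9 genes in edgeR or DESeq2, where 0.0212% of all genes were called in edgeR. Only SULT1C2 had an unadjusted p under 0.05, beside 4.99% of all genes. It had 21.3, 21, 15.7 and 18.1 CPM in CdCl2, against 28.8, 26.9, 31.9 and 18.6 CPM in H2O, and the groups overlapped. In same-numbered pairs, which the numbers paired here, the ratio of CdCl2 to H2O was 0.739, 0.781, 0.494 and 0.975, below 1 in 4 of 4. Its log2 difference of -0.48 ± 0.16 had an unadjusted p of 0.00555 and an adjusted p of 0.877, or 0.166 with the replicate block. SULT1A1 had 1, 1.11, 0.811 and 0.931 CPM in CdCl2, against 0.804, 0.806, 0.747 and 0.631 CPM in H2O, and was the only one of the 9 whose groups did not overlap, as for 2.45% of all genes. Its log2 difference was 0.37 ± 0.24 with an adjusted p of 0.898.

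The vehicles were also compared. DMSO and H2O differed in none of the 9 genes in edgeR or DESeq2, with no unadjusted p under 0.05, where 0% of all genes were called and 2.29% had such a p. The log2 differences of DMSO from H2O ran from -0.54 ± 0.47 for SULT1E1 to 0.38 ± 0.63 for SULT1B1.

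SULT2A1 and SULT1B1 shared a pattern over the replicate numbers of the labels. SULT1B1 (chr4:69721162-69787961, minus strand), which acts on thyroid hormones, had 1.45, 2.25, 5.1 and 0.989 CPM in CdCl2, against 0.412, 2.08, 1.29 and 0.485 CPM in H2O. In DMSO it had 0.731, 2.02, 2.37 and 0.449 CPM. Replicates 2 and 3 were the highest pair for both SULT2A1 and SULT1B1 in CdCl2, PFOS, TBTCl, DMSO and H2O. In TCDD the highest pair was replicates 1 and 2 for both genes, and in BPA it was replicates 3 and 4 for SULT2A1 and for SULT1B1. The coefficient of variation within a group ran from 29.9% in CdCl2 to 55.5% in DMSO for SULT2A1 and from 30.6% in TCDD to 78.3% in PFOS for SULT1B1, against 6.22% in TCDD to 15.5% in TBTCl for PAPSS1.

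**Figure D4:**
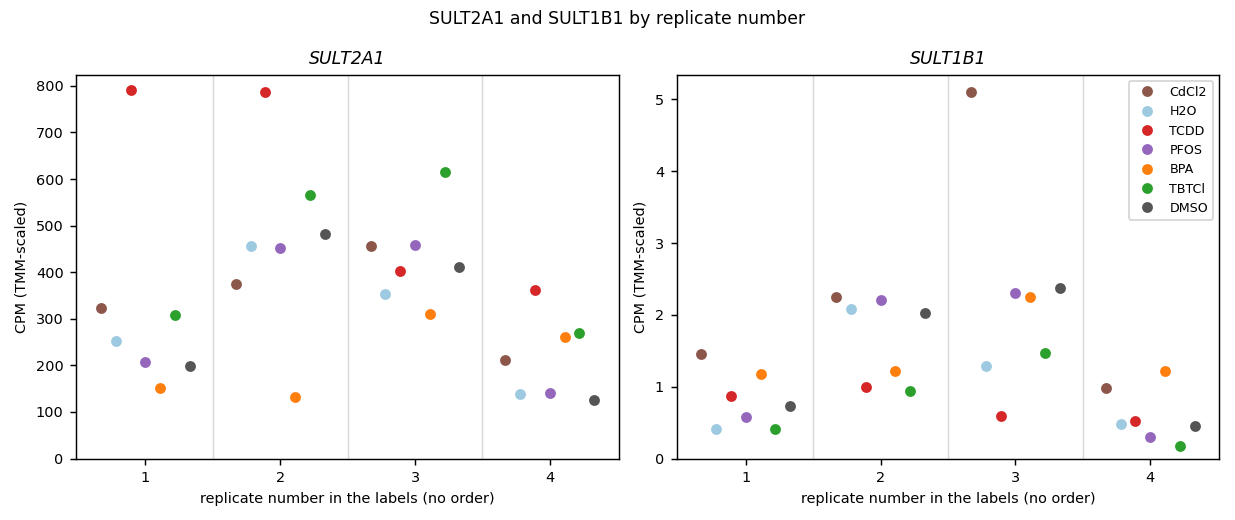
CPM of SULT2A1 and SULT1B1 in each library, placed by the replicate number in the labels, which carries no order, and coloured by group. In 5 of the 7 groups the points of replicates 2 and 3 lie above those of replicates 1 and 4 for both genes.

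Levels of SULT2A1 and SULT1B1 went together within groups, with a Pearson correlation of 0.89 between their log2 CPM after the group means were taken out and 0.45 before, over 28 libraries that are not independent points, since they share groups and replicate numbers, as a description only. A term for the replicate number, tested over all groups, passed at an adjusted p under 0.05 for 34.3% of all genes. It passed for 5 of the 9, SULT1B1 (adjusted p 0.000233), SULT1A2 (0.0027), SULT2A1 (0.00344), SULT1E1 (0.00574) and SULT1C2 (0.0231).

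Within same-numbered pairs the SULT2A1 ratio of TBTCl to DMSO was 1.55, 1.17, 1.5 and 2.14, above 1 in 4 of 4. That difference did not pass the test, with a log2 of 0.53 ± 0.44 and an adjusted p of 0.573, or 0.60 with an adjusted p of 0.27 with the block. The SULT2A1 ratio of PFOS to DMSO was 1.04, 0.935, 1.12 and 1.11. The SULT1B1 ratio of CdCl2 to H2O was 3.52, 1.08, 3.95 and 2.04, with a log2 of 1.18 ± 0.63 and an adjusted p of 0.898, or 0.24 with the block. The SULT1E1 ratio of BPA to DMSO was 0.252, 0.0185, 0.198 and 0.31, and that of SULT1C2 was 1.98, 1.65, 1.79 and 1.83. For both genes the groups did not overlap, so any pairing puts all 4 pairs on the called side and adds nothing to the call.

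The compounds that share DMSO were tested against each other in 6 direct comparisons. SULT2B1 passed the filter on low counts only through its TCDD libraries. It had to be high in TCDD to be tested at all, so its calls in the TCDD comparisons below are not independent results. TCDD and BPA differed in 6 of the 9 genes, where 38.3% of all genes were called. SULT1A1 (log2 0.72, adjusted p 0.0207), SULT1E1 (2.48, 0.00207), SULT2A1 (1.45, 0.0114), SULT2B1 (2.85, 0.000114) and PAPSS1 (0.96, 1.25e-06) were higher in TCDD than in BPA. SULT1C2 was lower in TCDD than in BPA, with a log2 difference of -1.04 and an adjusted p of 1.35e-05. The SULT1A1 difference was not called without the TCDD library of replicate 3, without the BPA library of replicate 2, or with no filter on low counts. With only the 8 libraries compared, SULT1B1 was called as well. SULT2A1 thus differed between TCDD and BPA, with 361 to 791 CPM in TCDD and 133 to 311 CPM in BPA, although neither differed from DMSO by the test. SULT1A2, called in both compounds against DMSO, averaged 18.9 ± 3.93 CPM in TCDD and 18.5 ± 3.9 CPM in BPA (SD, n = 4 each), and the 95% interval of the log2 difference was -0.30 to 0.38.

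TCDD against TBTCl differed in SULT1A2 (log2 0.63, adjusted p 0.0118) and SULT2B1 (2.43, 0.00152), where 12.8% of all genes were called. Without the TCDD library of replicate 2, or with only the 8 libraries compared, SULT2B1 alone of the 9 was called in this comparison. TCDD against PFOS differed in SULT1A1, SULT1A2 and SULT2B1, by log2 values of 0.78, 1.14 and 2.82, where 13% of all genes were called. SULT1A1 was not called there without any 1 of TCDD replicates 1, 2 and 3 or PFOS replicates 1, 2 and 4, with no filter, or with only the 8 libraries. BPA against TBTCl differed in SULT1A2 (0.59), SULT1C2 (1.05), SULT1E1 (-2.33) and PAPSS1 (-0.72), where 34.8% of all genes were called. SULT2A1 (-1.04, adjusted p 0.0672) was called as well without BPA replicate 3, TBTCl replicate 1 or TBTCl replicate 4, with upper-quartile factors and with no filter, and SULT1E1 was not called with only the 8 libraries compared. With a block for the replicate number, which paired these libraries, BPA against TBTCl also differed in SULT1B1 (1.22, adjusted p 0.0161) and SULT2A1 (-0.86, adjusted p 0.0298). BPA against PFOS differed in SULT1A2 (1.10), SULT1C2 (0.83), SULT1E1 (-2.78) and PAPSS1 (-0.89), where 30.6% of all genes were called. TBTCl and PFOS differed in none of the 9 in edgeR or DESeq2, where 0.249% of all genes were called. SULT1A2 alone of the 9 had an unadjusted p under 0.05, beside 13.4% of all genes. With the replicate block, SULT1A2 was called between TBTCl and PFOS.

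For the 6 genes called in a compound against its vehicle, the genes with the most similar level over the 28 libraries were looked up by the Pearson correlation of log2 CPM. For SULT2B1 these were CYP1B1 and HS6ST2 with 0.88 and TPRA1 with 0.86. For SULT1A2 they were PRKCZ (0.93), TSKU (0.91) and VAT1 (0.9), and for SULT1A1 they were CAPG (0.78), SNRPB2 (0.73) and CISD1 (0.73). For PAPSS1 they included C6 (0.96) and SOX6 (0.95). SULT1C2 went with KCNK13 (0.86), MUC20 (0.84) and GSDME (0.83), and SULT1E1 with TIA1 (0.87) and LINC00907 (0.87) among others. These correlations run over libraries that share groups and replicate numbers and are a description.

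Related genes were read from 5 lists, of other cytosolic sulfotransferases, PAPS handling and sulfate transport, sulfate formation from cysteine, sulfatases, and Golgi sulfotransferases. These lists were chosen with earlier results of these data known, so their counts are a description. Of their 49 tested genes, 7 were called in TCDD, beside 9.25% of all genes, and 18 in BPA, beside 35% of all genes, so the share in BPA was near that of all genes. None was called in CdCl2, PFOS or TBTCl against its vehicle by edgeR or DESeq2, with 3, 0 and 7 of the 49 at an unadjusted p under 0.05 in edgeR, beside 4.99%, 5.53% and 15.6% of all genes. Of the 6 other cytosolic sulfotransferases listed, only SULT1A3 and SULT1C4 had enough counts to be tested. SULT1C4 averaged 2.15 ± 0.394 CPM in BPA and 4.3 ± 1.42 CPM in DMSO (SD, n = 4 each), a log2 change of -1 ± 0.32 with an adjusted p of 0.0168, while SULT1C2 of the same subfamily rose.

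Among 7 tested genes of PAPS handling and sulfate transport, 1 fell in TCDD, and 1 rose and 1 fell in BPA, where 9.25% of all genes were called in TCDD and 35% in BPA. SLC26A2, a sulfate transporter of the plasma membrane, averaged 10.7 ± 1.67 CPM in TCDD and 11.1 ± 1.38 CPM in BPA, against 16.8 ± 2.12 CPM in DMSO (SD, n = 4 each). It fell in both, with log2 changes of -0.66 (adjusted p 0.0127) in TCDD and -0.60 (adjusted p 0.00877) in BPA. SLC26A11, of the same transporter family, averaged 37.3 ± 3.27 CPM in BPA, against 20.3 ± 3.04 CPM in DMSO, a log2 change of 0.88 with an adjusted p of 7.25e-05. The median log2 change of this list was -0.05 in TCDD and 0.01 in BPA, beside -0.01 and -0.02 over all genes.

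Of the 7 genes that form sulfate from cysteine, all tested, 1 fell in TCDD, and 3 rose and 1 fell in BPA. Of all genes, 2.8% fell in TCDD, and 17.3% rose and 17.6% fell in BPA. GOT1, the cytosolic aspartate aminotransferase, averaged 79.4 ± 7.8 CPM in TCDD and 271 ± 16.9 CPM in BPA, against 155 ± 28 CPM in DMSO (SD, n = 4 each). It fell in TCDD, with a log2 change of -0.97 (adjusted p 1.89e-06), and rose in BPA, with a log2 change of 0.80 (adjusted p 1.73e-05). ETHE1, a mitochondrial persulfide dioxygenase, averaged 41.5 ± 3.45 CPM in BPA, against 17.2 ± 2.31 CPM in DMSO, a log2 change of 1.27 with an adjusted p of 3.06e-05. MPST, a sulfurtransferase, rose in BPA by a log2 of 0.71 with an adjusted p of 0.0142. SUOX, the sulfite oxidase that makes sulfate, averaged 23.2 ± 5.29 CPM in BPA, against 46.7 ± 8.3 CPM in DMSO, a log2 change of -1.01 with an adjusted p of 0.00086. The median log2 change of the list was 0.12 in TCDD and 0.61 in BPA.

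**Figure D5:**
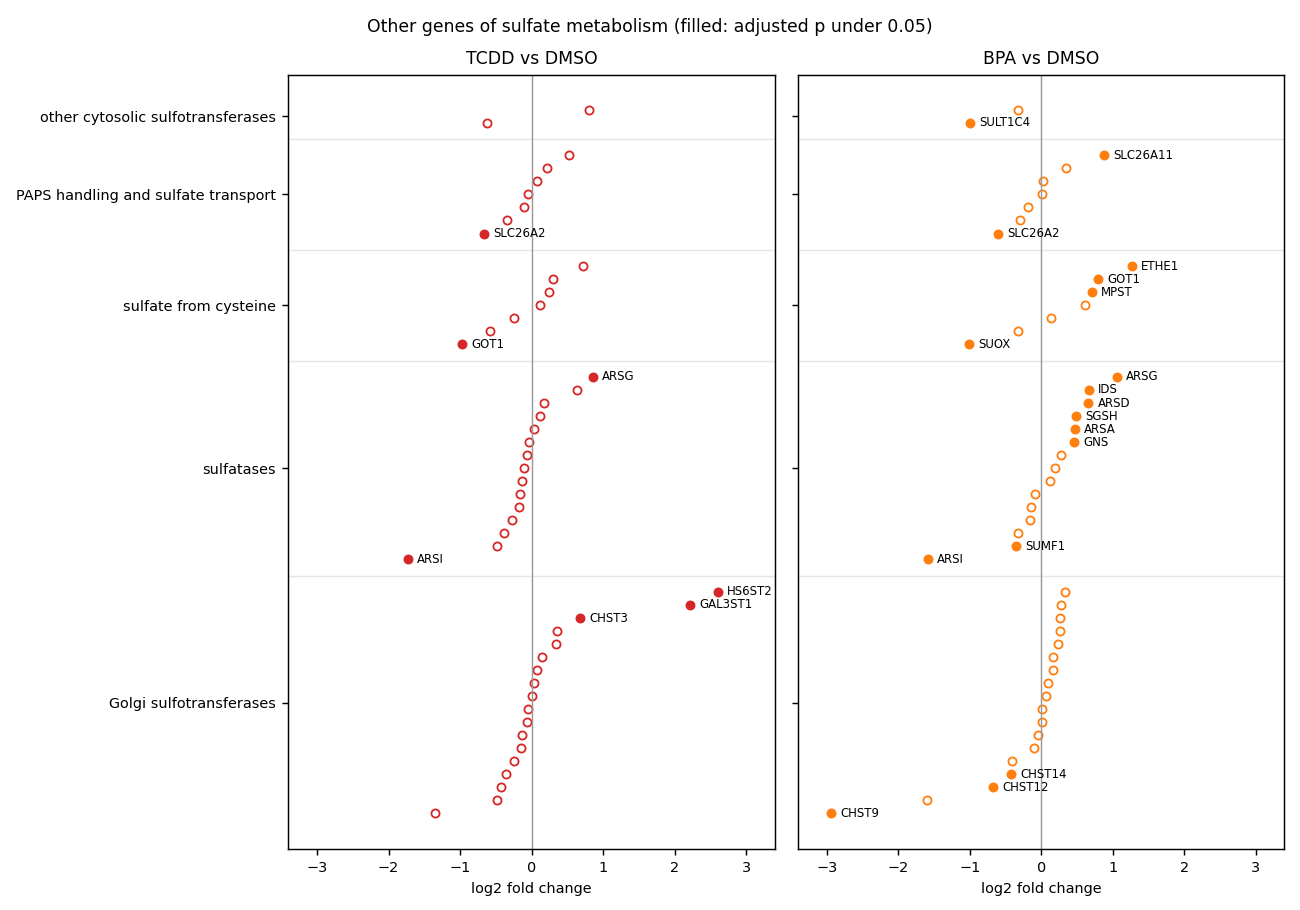
Log2 fold change of each tested gene of the 5 related lists in TCDD (left) and BPA (right) against DMSO, 1 row for each gene, sorted within a list, with called genes filled and named. In TCDD the largest rises are HS6ST2 at 2.61 and GAL3ST1 at 2.22, and in BPA the largest fall is CHST9 at -2.94.

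Sulfatases remove sulfate groups, and 15 of 17 listed, with their activating factors, were tested. In TCDD 1 rose and 1 fell, beside 6.45% and 2.8% of all genes, and in BPA 6 rose and 2 fell, beside 17.3% and 17.6% of all genes. ARSG, a lysosomal sulfatase, averaged 10.3 ± 1.06 CPM in TCDD and 11.9 ± 1.57 CPM in BPA, against 5.71 ± 0.319 CPM in DMSO (SD, n = 4 each), with log2 changes of 0.86 (adjusted p 6.59e-05) and 1.06 (adjusted p 2.09e-06). SGSH, which degrades heparan sulfate, rose in BPA by a log2 of 0.49 with an adjusted p of 0.000512. ARSI averaged 7.71 ± 3.8 CPM in TCDD and 8.46 ± 2.33 CPM in BPA, against 25.4 ± 14 CPM in DMSO, with log2 changes of -1.73 (adjusted p 0.0093) and -1.58 (adjusted p 0.00614). The median log2 change of the list was -0.10 in TCDD and 0.19 in BPA.

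Of 21 Golgi sulfotransferases, which use the same PAPS to sulfate proteins and glycans, 18 were tested. In TCDD 3 rose, beside 6.45% of all genes, and in BPA 3 fell, beside 17.6% of all genes that fell and 35% that were called. GAL3ST1, which makes sulfatide, averaged 36.3 ± 16.7 CPM in TCDD, against 7.79 ± 1.38 CPM in DMSO, a log2 change of 2.22 ± 0.30 with an adjusted p of 5.67e-06. HS6ST2, a heparan sulfate sulfotransferase, averaged 1.61 ± 0.62 CPM in TCDD, against 0.27 ± 0.162 CPM in DMSO, a log2 change of 2.61 ± 0.47 with an adjusted p of 0.000296. CHST9, which sulfates N-acetylgalactosamine, averaged 1.4 ± 0.651 CPM in BPA, against 10.8 ± 1.08 CPM in DMSO, a log2 change of -2.94 ± 0.23 with an adjusted p of 1.02e-09. The median log2 change of the list was -0.02 in TCDD and 0.04 in BPA.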

How the data were processed

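Poly(A) RNA of HepG2 cells was sequenced as directional 150-base read pairs, per the labels' protocols. The authors deposited whole-number read counts per gene, made with fastp, STAR and HTSeq on GRCh38, and DESeq2 is also named, per the submitters' processing notes. For the counting, neither tool versions nor annotation release nor strand setting is stated (not given in the sources used here). Of 63140 gene rows the last was dropped, because the file ends within it. The filter filterByExpr (minimum count 10) passed 18849 genes, which hold 99.96% of the counts. All 28 libraries entered 1 fit of edgeR 4.0.16 (quasi-likelihood, TMM factors 0.861 to 1.07, 7 group means, 21 residual degrees of freedom, common biological coefficient of variation 22.0%) in R 4.3.3, with Benjamini-Hochberg adjustment over all tested genes. The SE is the log2 fold change divided by the square root of F. The fit was tested on simulated counts. Libraries of a group differed by more than counting error (chi-square per gene 24.8 to 334). P-values rest on the spread between libraries within groups, pooled over the 7 groups. This spread includes differences between replicate numbers, since the fit reported held no term for them. The tests take the 4 libraries of a group as independent, and the protocols name 4 independent experiments and technical triplicates.

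The 9 genes and the related lists were chosen with earlier results of these data known. All 9 are named; from each related list the 3 called genes with the smallest adjusted p were named, or all where 5 or fewer were called. For each called gene of the 9, the 3 genes most like it by correlation were looked up, and some of these are not reported here. The comparisons with DMSO share its 4 libraries. Exon lengths, overlaps and coordinates are those of GENCODE release 29, which may differ from the release used for counting, and promoters are those of RefSeq on GRCh38.p14. Alternatives were DESeq2 1.42.0, other scalings, no filter, a replicate block, the 8 libraries of a comparison alone, each library left out, the SULT1A copies summed, and H2O in place of DMSO.

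Pairing by replicate number was checked through the correlation, between 2 groups, of the deviations of same-numbered libraries from their group means. It was 0.173 to 0.269 for BPA and DMSO, 0.123 to 0.54 for CdCl2 and H2O, 0.249 to 0.528 for TBTCl and DMSO, 0.425 to 0.593 for PFOS and DMSO, 0.181 to 0.627 for DMSO and H2O, 0.146 to 0.324 for BPA and TBTCl and 0.248 to 0.521 for TBTCl and PFOS, all over the minimum of 0.1 in every pair.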

Additional observations from a re-analysis of the deposited data

Results flagged for a closer look

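In 3 of the 63 groups of 4 libraries examined (9 genes in 7 groups), 1 library stood far from the other 3 by Dixon's test at the 95% level, and chance flags about 1 in 20 groups. SULT1A2 in replicate 2 of H2O was at 11.1 CPM, where the other 3 H2O libraries had 7.47 to 7.79 CPM. SULT1B1 in replicate 3 of BPA was at 2.25 CPM, where the others had 1.18 to 1.22 CPM. PAPSS1 in replicate 3 of CdCl2 was at 138 CPM, where the others had 108 to 112 CPM. None of these genes was called in CdCl2, and SULT1B1 was not called in BPA against DMSO.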

How the results depend on the processing

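Of 888 recomputed values of single genes, 831 kept their direction and their side of the threshold, 2 lost the call (both SULT1A1 in TCDD, given above), 2 gained one and 53 changed sign, and no value that changed sign had an adjusted p under 0.05. The count of called genes among the 9 moved by more than 1.5 times in few cases. With the replicate block it was 1 in place of 0 for TBTCl against DMSO and 1 in place of 0 for TBTCl against PFOS, SULT1A2 in both. With only the 8 libraries compared it was 1 in place of 2 for TCDD against TBTCl, SULT2B1, and SULT1E1 was not called in BPA against TBTCl. Leaving out single libraries gave 1 to 2 called for TCDD against TBTCl (1 without replicate 2 of TCDD), 2 to 3 for TCDD against DMSO, 2 to 3 for TCDD against PFOS, 5 to 6 for TCDD against BPA and 4 to 5 for BPA against TBTCl, and changed no other count. For TCDD the pairing check did not reach the minimum of 0.1 in every pair with DMSO (correlations -0.212 to 0.439), BPA, TBTCl or PFOS (0.051 to 0.265). Nor did it for BPA with PFOS (-0.052 to 0.344). Whether these same-numbered libraries come from 1 experiment cannot be told from this check. The replicate block then also called SULT2A1 in TCDD against DMSO (log2 1.11, adjusted p 0.0181), SULT1B1 in TCDD against BPA (-0.94, adjusted p 0.049) and SULT2A1 in TCDD against PFOS, and 21 of 28 libraries correlated best with their own number. Beside the block calls given with the results, the block changed no other call. Over all genes, the called counts moved by more than 1.5 times as follows: 2722 with the block for TCDD against DMSO (1743 in the fit reported), 3745 with the block for TCDD against PFOS (2450), 919 for TCDD against TBTCl (2420) and 3460 for BPA against TBTCl (6564) with only 8 libraries, and, over all alternatives but single libraries left out, 0 to 28 for CdCl2 against H2O (4), 2 to 109 for PFOS against DMSO (3), 1 to 251 for TBTCl against DMSO (27), 0 to 1 for DMSO against H2O (0) and 0 to 199 for TBTCl against PFOS (47). Library size alone, chosen after seeing the data, put the median of all genes in BPA at -0.14.

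The sign changes concern uncalled values. With upper-quartile factors SULT1C2 in PFOS was -0.01 and SULT1B1 in BPA was -0.08, or -0.06 with library size alone. With the replicate block SULT2A1 in DMSO against H2O was -0.02. With H2O in place of DMSO, PAPSS1 in TCDD was 0.02, and in PFOS SULT1A2 was 0.02, SULT1B1 0.31, SULT1C2 -0.17 and SULT1E1 -0.46. Leaving out single libraries gave these ranges. Against H2O, CdCl2 gave -0.02 to 0.14 for PAPSS1, -0.05 to 0.46 for SULT2A1 and -0.35 to 0.35 for SULT2B1, and DMSO gave -0.50 to 0.19 for PAPSS2, -0.14 to 0.04 for SULT1A1, -0.05 to 0.19 for SULT1A2, -0.29 to 0.29 for SULT2A1 and -0.33 to 0.34 for SULT2B1. Against DMSO, TCDD gave -0.09 to 0.01 for PAPSS1 and -0.50 to 0.08 for SULT1E1, BPA gave -0.50 to 0.17 for PAPSS2 and -0.25 to 0.43 for SULT1B1, and TBTCl gave -0.67 to 0.01 for PAPSS2. PFOS gave -0.56 to 0.12 for PAPSS2, -0.03 to 0.28 for SULT1A1, -0.09 to 0.06 for SULT1A2, -0.44 to 0.31 for SULT1B1, -0.07 to 0.11 for SULT1C2, -0.19 to 0.39 for SULT1E1 and -0.21 to 0.35 for SULT2A1. The cause was not tested. Depth limits SULT2B1, SULT1E1, SULT1B1 and PAPSS2, whose counts per library fall to 0, 1, 5 and 6.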
